A study of Mus musculus with 24 samples.

Results

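Of 55681 non-control probes on a whole-genome mouse array, 95 were well above background on all 12 arrays of C57BLKs/J (BLKS) islets and on none of the 12 arrays of C57BL6/J (BL6) islets. These 95 member probes carried 93 of the array's 34797 gene names, and 61 of the 93 were gene symbols. They were chosen from 149 probes of this pattern after leaving out 49 named only by a chromosome interval, 1 of the H2- class and 4 of Nnt, Il6, Cxcl2 and Egr4. A spot counted as well above background when the scanner software flagged it so, with the multiple of the background SD set to 13 in the file headers. The strain contrast itself chose the probes, so every strain value below is a description and carries no test.

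Islets came from collagenase-perfused pancreata of male mice that were 8 weeks old when the diets began, and 1 array was run per mouse. Each strain had 4 mice on chow with 18% of calories as fat, 4 on a high-fat diet (HFD) with 42%, and 4 on that high-fat diet with 140 mg of pioglitazone per kg of diet (HFD+PIO). Pioglitazone activates the nuclear receptor PPAR-gamma and is used as an insulin sensitiser. Diets lasted 12 weeks by the labels of the samples but 16 weeks by the text of the series, and this difference was not resolved. Probes well above background numbered 27373 to 30727 per BL6 array and 29027 to 32459 per BLKS array. Strains shared a slide only on slides 2 and 4, where BL6 mice on HFD+PIO lay beside BLKS mice on chow.

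C57BL/6 and C57BLKS are related inbred strains, and C57BLKS carries segments of other strains, DBA/2 among them. On C57BLKS, obesity mutations lead to beta-cell failure and lasting diabetes, whereas C57BL/6 mice compensate with larger islets. An array probe reports only the short stretch of transcript it hybridises to, so what a probe shows need not hold for every transcript of its gene. In whole islets, fewer cells of a type and less RNA per cell cannot be told apart.

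A pair of probes on the same transcript shows what agreement between probes means here. Both probes of Skor1, a SKI-family transcriptional corepressor, were members, and their mm9 positions on the minus strand of chromosome 9, chr9:62986044-62986103 and chr9:62985992-62986051, share 8 bases. For Ptx4, a long-pentraxin gene, the member at chr17:25262098-25262157 (plus strand) shares 6 bases with a second probe at chr17:25262152-25262211. The second Ptx4 probe was well above background on none of the 24 arrays. The ends at which each pair meets are given 5' to 3' as on the array, with the shared bases in capitals.
Skor1 member A_55_P2000434, last 30 bases: aactgactcacgagatggcgacCATCTTGA
Skor1 member A_55_P2106504, first 30 bases: CATCTTGAgcctatttggggagacctgtat
Ptx4 member A_55_P2156800, last 30 bases: ccaaatgtacctgcctggagcagtGTCCAT
Ptx4 other probe A_55_P2090909, first 30 bases: GTCCATatgccacaccgtgactgtgtcaca

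Levels below are log2 signals with each array's 75th percentile set to 0, and a difference is BLKS minus BL6 on that scale. Because every member was dim in BL6, a fold is given as a lower bound: the BLKS mean against the BL6 mean of, per array, the probe's own signal or the lowest signal of any probe well above background, whichever was higher. A difference of mean signals is printed beside it as a description; where a probe was not well above background in BL6 it is no exact fold. The bounds ran from 1.49-fold to 15.4-fold with a median of 2.80-fold. Only 20 members exceeded 5-fold, and 21 stayed under 2-fold. In 89 of 95 members every BLKS array lay above every BL6 array, against 10.9% of all 32776 probes that were well above background on at least 4 arrays; since the rule used this contrast, nothing is read from that count. The 6 others, among them the Wnt receptor gene Fzd5, had overlapping arrays.

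The largest bounds belonged to genes of unrelated roles. Fam71a (probe at chr1:192986463-192986522, minus strand, mm9), a gene of a family named only by sequence similarity, was at -7.10, -6.83 and -5.28 in BL6 (lowest, median and highest of 12). In BLKS it was at -1.61, -0.71 and 0.16, at least 15.4-fold higher. Apol8, an apolipoprotein L gene (chr15:77578354-77578413, minus strand), ran from -6.89 to -6.09 in BL6, with a median of -6.68. Its BLKS levels ran from -1.12 to -0.40 with a median of -0.80, also at least 15.4-fold higher, and its SD of 0.23 over the BLKS mice was under that of Fam71a (0.54). Ccno encodes cyclin O, needed to build multiciliated cells; it ran from -7.00 to -4.71 in BL6 and from -1.29 to -0.31 in BLKS, at least 13.7-fold higher. The predicted gene Gm9889 was at least 12.8-fold higher. For all 4 of these probes the gap between the lowest BLKS and the highest BL6 array exceeded 3 log2 units.

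Further down, at 6-fold to 10-fold, stood a hormone, a vasoconstrictor peptide, metabolic and developmental genes. Trh, the precursor of thyrotropin-releasing hormone, which the developing pancreas also makes, was at least 9.63-fold higher, with the widest scatter of any member. Edn1 encodes endothelin-1 and was at least 6.03-fold higher: BL6 ran from -6.63 to -5.57 around a median of -6.29, and BLKS from -2.61 to -1.49 around -2.08. Acsm3, a mitochondrial medium-chain acyl-CoA synthetase, had a pair of member probes 166 bases apart, at least 7.49-fold and 6.74-fold higher. Both Acsm3 probes rose and fell within the same narrow range, with BLKS medians of -1.72 and -1.90. Hoxa5, a homeobox patterning gene, was at least 7.42-fold higher, with BLKS arrays between -2.13 and -1.36 and BL6 arrays between -7.05 and -4.85. The Skor1 probes were at least 6.65-fold and 4.55-fold higher. Lrrc34, a leucine-rich repeat gene, was at least 8.19-fold higher, Tdrd6, a tudor-domain gene of male germ cells, 6.55-fold, and the DNA segment D7Wsu130e 8.12-fold. No BLKS array overlapped a BL6 array for any of these genes.

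**Figure D1:**
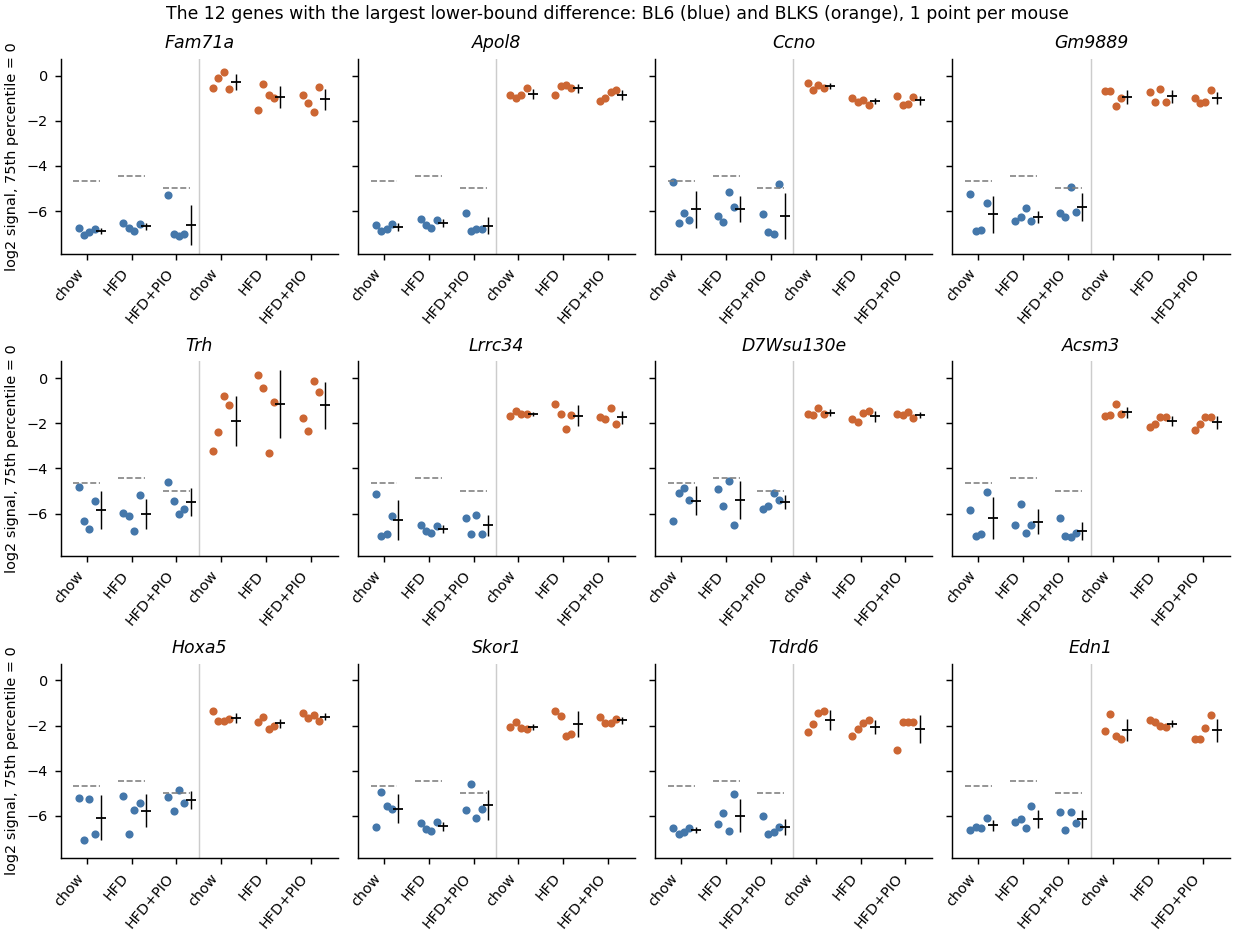
Log2 signal relative to each array's 75th percentile for the 12 genes with the largest lower-bound fold (for Acsm3 and Skor1, the probe of larger bound), by strain and diet. Points are mice, ticks with bars are the mean and SD of 4 mice, and dashed lines mark the mean of the lowest well-detected signal on the BL6 arrays. BLKS mice lie above all BL6 mice in each panel, and Trh spreads most among the BLKS mice.

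The rule required its pattern on every array, so higher BLKS signals within each diet and slide were fixed by the choice of members and nothing is read from them. The median difference over the 95 members was 3.04 on chow, 2.89 on HFD and 2.99 on HFD+PIO. All 95 were higher in BLKS within each diet. Of the 32776 probes well above background on at least 4 arrays, 45.6% were higher in BLKS over the 12 against 12 mice. Bounds by diet had medians of 2.88-fold, 2.34-fold and 3.46-fold; the lowest well-detected signal on a BL6 array ran from -5.79 to -3.92, and it sets the bound. On slide 2 the differences ran from 1.16 to 6.21 (3 BL6 mice on HFD+PIO and 3 BLKS mice on chow), and on slide 4, with 1 mouse of each, from 0.64 to 7.16. Within slides 2 and 4 together the median was 2.97, and diet differed between the strains there.

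"Detected only in BLKS" describes the flag rather than the absence of signal in BL6. By the software's weaker flag, positive and significant against the local background, 3 members (Apol8, 4921528I01Rik and a probe with no gene name) passed on 0 BL6 arrays. Another 32 members passed on 1 to 5 BL6 arrays, 53 on 6 to 11, and 7 on all 12. The median member passed on 7 of 12 BL6 arrays. Itgb6, Ankrd1 and Rrh each passed on 1 BL6 array, while Dnajb5, Fzd5 and the small nucleolar RNA gene Snora47 passed on all 12.

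At the edge of the rule, the members with the smallest gap were 2310001K24Rik, A_55_P2272748, Fzd5, 4933412L11Rik and 9330198I05Rik, whose lowest BLKS minus highest BL6 array came to -0.49, -0.30, -0.26, -0.16 and -0.10 in the same order. Just outside, 70 probes passed on 12 BLKS and 1 BL6 array, and 24 on 11 and 0. By mean signal, the named genes among them that stood farthest apart were Gprc5b, an orphan receptor gene, Ptgs2, which encodes cyclooxygenase-2, Niacr1, the niacin receptor, Foxa1, a pioneer factor of endoderm, and Ccl7, a monocyte chemokine. Each was well above background on only 1 BL6 array, so the size of the difference and the order of these genes are not exact. In BLKS, Gprc5b ran from -0.62 to 0.13, Niacr1 from -1.84 to -0.90, Foxa1 from -2.88 to -0.93, Ptgs2 from -2.46 to 0.49 and Ccl7 from -3.81 to 1.93. The arrays of the strains overlapped for Ccl7, whose highest BL6 array was at -2.45, but not for the others. Leaving out the array of BL6 HFD+PIO mouse 3 let 115 probes pass in place of 95. This array had the highest B-cell (3.52), T-cell (2.69) and macrophage (2.51) marker levels of the 24 arrays. It also had the lowest well-detected signal of the 24 (-5.79) and the highest 75th percentile of the BL6 arrays (425.4). The part of these cells or of the array's sensitivity in that count was not tested.

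Other probes of the same genes gave a mixed answer. Of the 93 gene names, 61 had no other probe and 31 had at least 1 that was not itself a member, 43 probes in all. In 15 of these 43 (34.9%) every BLKS array again lay above every BL6 array, 15 were higher on average with overlap, 11 were lower on average with overlap, and 2 were reversed without overlap. Among the 26 other probes well above background on all 24 arrays, 12 (46.2%) agreed, beside 11.6% of all 24728 probes detected that widely. As many as 20 of the 31 genes had another probe that was well above background on all 12 BL6 arrays, so a signal under those gene names was detected in BL6 islets too.

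Agreement was clearest for 11 genes. Itgb6, the beta-6 integrin subunit of epithelia, had a second probe at -5.11 ± 0.56 in BL6 and -1.02 ± 0.20 in BLKS (SD, n = 12 each). It was well above background on 1 of the 12 BL6 arrays, so its fold is not exact, and it missed the rule by that array. Cdkn1a, the p21 cell-cycle inhibitor, was measured by another probe at 0.81 ± 0.44 in BL6 and 3.06 ± 0.21 in BLKS, 4.76-fold apart, on all 24 arrays; its remaining probe was well above background on none. Ikzf4, a transcription factor of the Ikaros family, had a pair of other probes 4.91-fold and 5.00-fold apart, also on all 24 arrays. For Cdkn1a and Ikzf4 these probes were thus well above background in BL6 too. Ccdc116 (2.47) and Dnajb5 (1.56), a heat-shock co-chaperone, agreed through another probe on all 24 arrays. The other probe of D7Bwg0826e (2.39) agreed but was well above background on 1 BL6 array. Srgap1, a regulator of Rac signalling, was split: a probe 12 bases from the member, well above background on 3 BL6 arrays, agreed (2.28), while a probe 4259 bases away, measured on all 24 arrays, differed by 0.42 with overlapping arrays. In Zfand5, a ubiquitin-binding zinc-finger gene, other probes differed by 2.35, 0.70 and 0.23, and the arrays overlapped for the last of these. Ipmk (0.80 and 0.67), Ccnyl1 (1.19 and 0.46) and Ccdc88c (0.55) agreed without overlap, while a further Ccdc88c probe (1.94, well above background on 2 BL6 arrays) overlapped.

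For 20 genes no other probe outside the members agreed, and 11 of these had another probe on all BL6 arrays. Trpm1, a cation channel of melanocytes and retinal bipolar cells, differed by 3.92 at the member and by 0.03 at a second probe 42274 bases away that was well above background on all 24 arrays. Upp1, uridine phosphorylase, differed by 2.53 at the member and by 0.04 at its other probe (2.27 ± 0.35 in BL6 and 2.31 ± 0.19 in BLKS). Msi1 (0.02), an RNA-binding protein of progenitor cells, Mrpl9 (0.12), Cox11 (0.14) and Kctd8 (0.16) were likewise near equal at the other probe, and Wscd2 (-0.22) and Lrrc8e (-0.26) slightly lower in BLKS, all with overlapping arrays. Prkar2a (0.73) and Shisa7 (0.49) were higher in BLKS on average, with overlap. So were Ccdc141 (1.3), Gm9265 (0.94), Fzd5 (0.65) and Fbxl22 (0.51), whose other probes were well above background on 0, 6, 8 and 2 BL6 arrays in that order. For Mmp12, Rrh, Ptx4 and 4921528I01Rik the other probes were well above background on no array. The BLKS signal of these members was thus not seen at a second probe. Further Trpm1 probes (-0.55 and -0.05) were also well above background on no BLKS array. Whether these dim probes can detect their transcripts was not tested, which leaves the members unchecked. Acsm3 is among the 20 because both probes of its agreeing pair were members. Its remaining probe, designed to another transcript, passed on 1 BL6 array and on 0 of the BLKS arrays.

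Dcaf17, a substrate receptor of a ubiquitin ligase, was reversed. Its member differed by 1.89, from -6.93 to -5.03 in BL6 and from -4.53 to -3.48 in BLKS. A second probe was at -0.0044 ± 0.11 in BL6 and -0.93 ± 0.15 in BLKS, and another at -1.12 ± 0.14 and -2.81 ± 0.17 (SD, n = 12 each). Both ran lower in BLKS without overlap, with differences of -0.92 and -1.69. The last probe was well above background on 11 BL6 arrays and 1 BLKS array, with a difference of -2.11. The array lists these 4 probes under 4 transcript records of the gene.

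**Figure D2:**
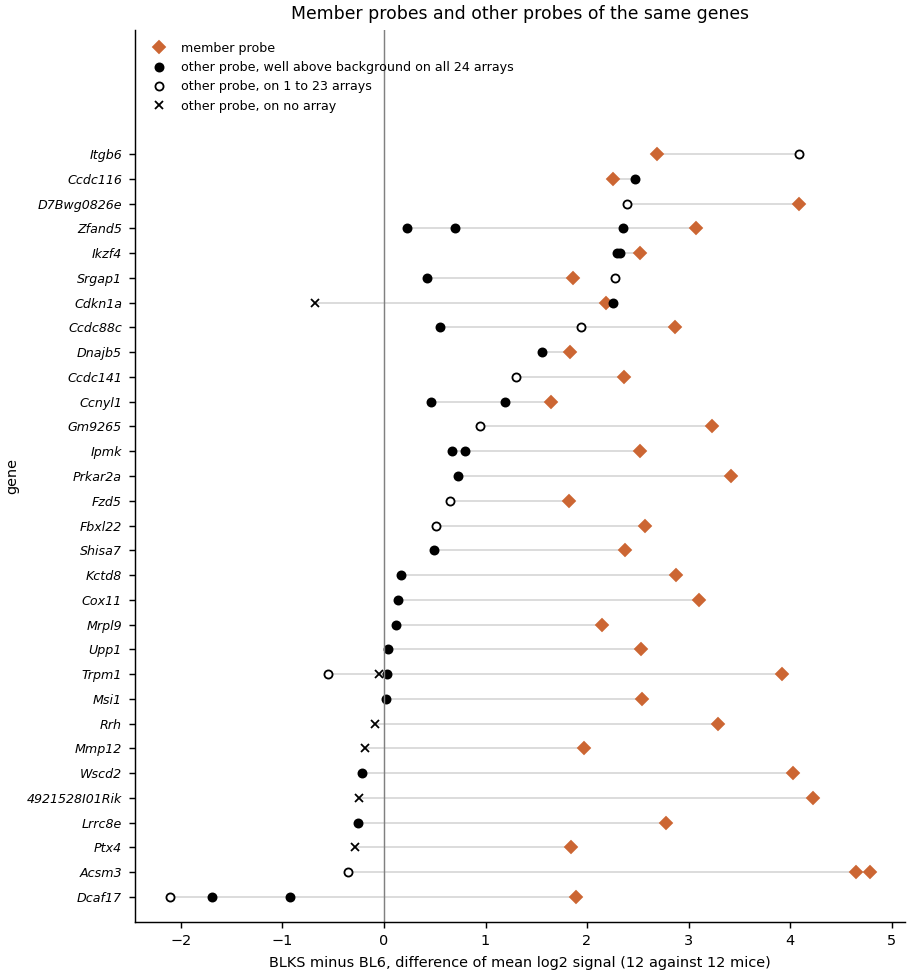
Strain difference of mean log2 signal (BLKS minus BL6, 12 mice each) at the member probe (diamonds) and at other probes of the same gene, for the 31 genes that had another probe. Filled circles were well above background on all 24 arrays, open circles on fewer and crosses on none. Members lie between 1.64 and 4.78, while other probes run from -2.11 (Dcaf17) to 4.09 (Itgb6).

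Members lay on chromosomes 1 to 19 and X. Chromosome 3 held 11 of 95 members (11.6%) and 4.98% of the probes well above background on at least 4 arrays. Chromosome 7 held 10 (10.5% against 7.21%), chromosome 10 held 8 (8.42% against 4.35%) and chromosome 9 held 8 (8.42% against 4.79%). Lower than their share of probes were, among others, chromosome 2 with 4 (4.21% against 7.67%) and chromosome 1 with 3 (3.16% against 5.95%). With probe starts at most 2 Mb apart, 23 of the 92 placed gene names fell into 11 clusters, 10 of them pairs. Their number follows the distance allowed: 10 names at 1 Mb and 43 at 5 Mb. Probes of the same pattern that were left out by name did not count toward clusters. Within 2 Mb of such a probe lay 10 members, among them Ucp1, Ccno, Fzd9 and Mrpl9.

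The closest neighbours were few. Ccnyl1 (a cyclin-Y-like gene, at least 1.87-fold) and Fzd5 (2.46-fold) lay within 9.36 kb on chromosome 1. Tssk3, a testis-specific serine kinase gene (2.67-fold), and 1700125D06Rik (2.84-fold; current symbol Fam229a) lay within 2.89 kb on chromosome 4. Mmp13 and Mmp12, the genes for collagenase 3 and macrophage elastase, lay within 70.2 kb on chromosome 9, at least 5.51-fold and 2.49-fold higher. No other gene had a probe inside these 3 spans that was well above background on at least 4 arrays. Of the pair, Mmp13 was the more scattered, from -3.20 to -1.35 over the BLKS mice, and Mmp12 ran from -3.85 to -2.45.

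The wider clusters held many genes that were no members. On chromosome 3, the cornified-envelope genes Sprr1a (4.88-fold) and Tchh (2.60-fold) shared a span of 1966 kb with Mrpl9 (1.94-fold), in which 3 of 31 other probes were higher in BLKS without overlap and 3 lower. On chromosome 5, Wscd2 (4.40-fold) and Msi1 (3.29-fold) flanked 69 others, 11 higher and 4 lower. On chromosome 7, Zfp819 (3.69-fold), a zinc-finger gene, paired with D7Bwg0826e (5.71-fold), with 2 of 57 others higher and 2 lower, and AA142551 (1.81-fold) with Acsm3, with 4 of 29 higher and 2 lower. On chromosome 9, Gnat1 (3.83-fold), rod transducin, and Prkar2a (3.49-fold), a regulatory subunit of protein kinase A, flanked 45 others, 6 higher and 5 lower. On chromosome 15, the hair keratin gene Krt83 (2.68-fold) and Gpr84 (2.05-fold), a receptor for medium-chain fatty acids, flanked 83 others, 10 higher and 17 lower. The remaining pairs were D6Ertd527e (1.76-fold) with 4933412L11Rik (1.73-fold) on chromosome 6, with 4 of 22 others higher and 4 lower, and Trim15 (2.18-fold) with a probe of no gene name on chromosome 17, with 13 of 69 higher and 8 lower. Only probes well above background on at least 4 arrays were counted in these spans and in what follows. Around the 84 members with at least 10 such probes of other genes within 1 Mb, a median of 22.2% were apart between strains in either direction. That is near the 19.6% over all probes at this level of detection.

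Families known to vary between inbred strains were counted beside the 0.29% of all probes kept that were members. At that share few or no members fall into groups of these sizes, so nothing is read from the low counts. Of 510 Zfp probes well above background on at least 4 arrays, 1 was a member (Zfp819). There were 0 members among 31 glutathione S-transferase, 39 cytochrome P450, 45 serpin, 98 olfactory receptor, 12 guanylate-binding protein, 12 Oas, 11 Trim5/30-group, 8 Ifi200-group, 8 carboxylesterase, 8 Naip and Nlrp, 7 natural killer receptor, 6 schlafen, 15 kallikrein, 23 vomeronasal, 5 UDP-glucuronosyltransferase, 6 butyrophilin and 5 immunoglobulin probes kept. Clone names ending in Rik gave 14 members of 2020 (0.693%) and predicted Gm genes 5 of 952 (0.525%), beside the same 0.29%. The mirrored pattern, BL6 arrays only, gave 40 probes under the same exclusions, with BL6 minus BLKS differences of 2.00 to 8.97 and a median of 3.17; the members' BLKS minus BL6 differences ran from 1.09 to 5.97 with a median of 2.99.

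In BLKS islets, 70 of 95 members had an SD under 0.4 log2 units over the 12 mice, and 9 had 0.6 or more (9.47%). Among 10793 other probes detected on all 12 BLKS arrays, with means inside the members' range, 3.72% reached 0.6. Their median SD was 0.25 against 0.33 for the members. Levels were not matched within that range, and the SD of the other probes fell with level. Its median was 0.31 around a mean of -3.75 and 0.20 around -0.75. The tightest members were AW125324 (0.13), 1700125D06Rik (0.17) and D7Wsu130e (0.17). The most scattered were Trh (1.18), Ucp1 (1.13), Sprr1a (0.93), Gli3 (0.70), Ankrd1 (0.62) and Mmp13 (0.61), and 3 probes without a gene symbol.

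**Figure D3:**
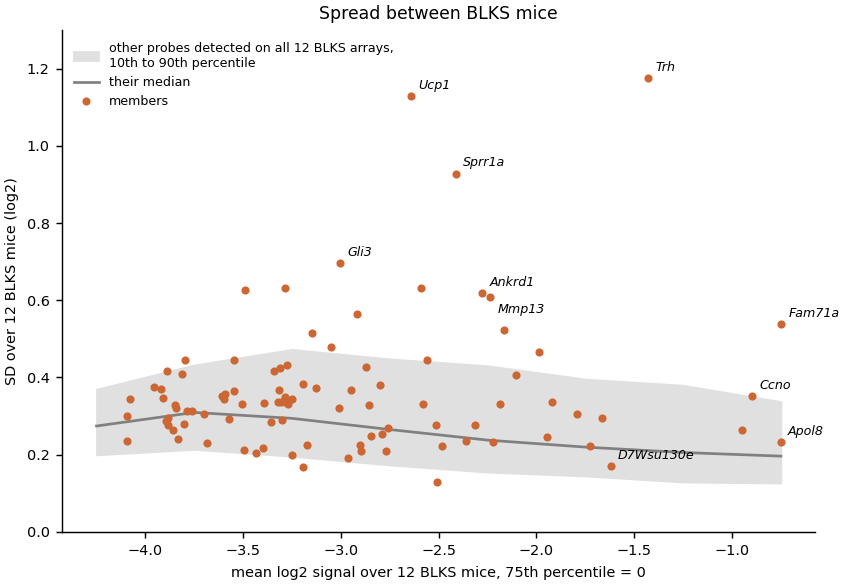
SD against mean log2 signal over the 12 BLKS mice for the 95 members (points). The grey band gives the 10th to 90th percentile, and the grey line the median, of the SD of other probes detected on all 12 BLKS arrays, in steps of mean level; Trh, Ucp1 and Sprr1a lie far above it and D7Wsu130e and Apol8 inside it.

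Ucp1, the uncoupling protein of brown fat, was high in single mice of every diet. On chow the 4 mice were at -3.58, -1.17, -3.84 and -2.20, on HFD at -3.07, -3.10, -0.86 and -3.01, and on HFD+PIO at -0.70, -3.69, -3.43 and -3.05. In each group 1 mouse stood highest and the groups overlapped. Of the adipocyte markers, Adipoq and Plin1 were well above background on 0 of 24 arrays, and Cfd on 1 BL6 and 1 BLKS array; their mean level ran from -6.84 to -4.76 in BL6 and from -6.99 to -5.81 in BLKS.

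Trh was at -3.25, -2.39, -0.80 and -1.21 on chow, at 0.13, -0.43, -3.31 and -1.05 on HFD, and at -1.79, -2.35, -0.11 and -0.61 on HFD+PIO. Low and high mice occurred in each group, so the span within a group exceeded any distance between group means. Sprr1a, a cornified-envelope precursor induced in stressed epithelia, was at -2.38, -2.87, -2.67 and -3.48 on chow and at -3.86, -1.05, -2.37 and -0.64 on HFD. On HFD+PIO it was at -2.73, -2.86, -2.42 and -1.59, inside the range of the HFD mice. Ankrd1, a stretch-responsive transcriptional cofactor, was lowest in HFD mouse 1 (-3.59), while the other HFD mice lay between -1.73 and -1.57. HFD mouse 3 gave the lowest of the 12 BLKS values for 19 of 95 members, the most of any mouse, Trh, Fgg (the fibrinogen gamma chain) and Lrrc34 among them, and HFD mouse 1 gave the highest for 21. The same counts over all probes are not given here, so nothing about the members in particular is read from them. The array of HFD mouse 3 also had the highest B-cell (2.77, the others at most 0.98), T-cell (0.97) and macrophage (1.23) marker levels of the BLKS arrays and the second highest acinar level (7.94); their part in these values was not tested.

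**Figure D4:**
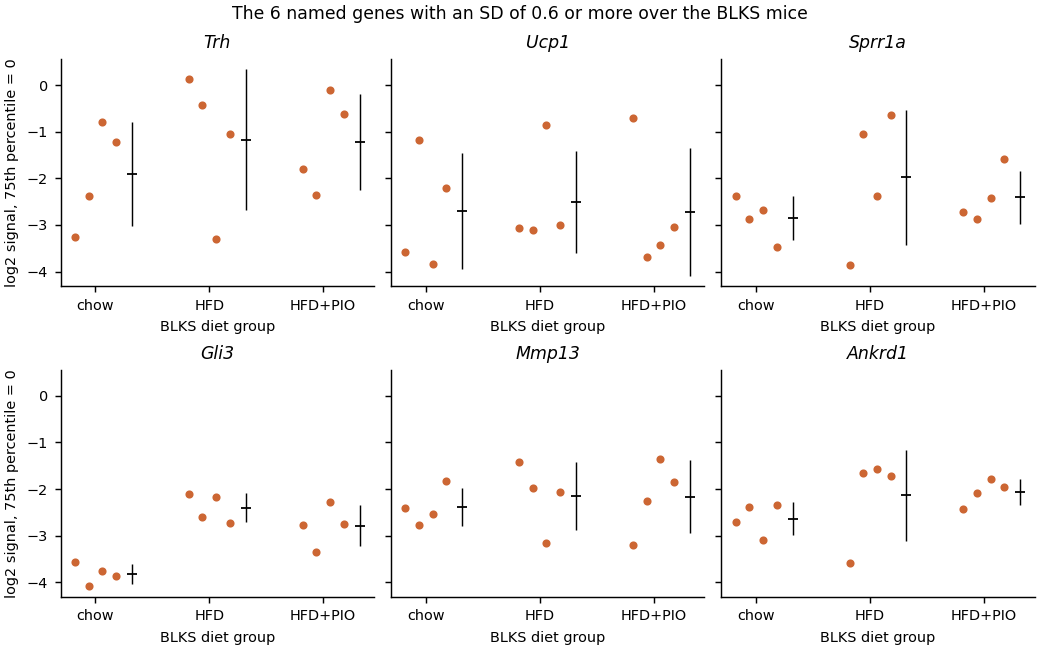
Log2 signal relative to each array's 75th percentile in the 12 BLKS mice, for the 6 genes with symbols whose SD reached 0.6, by diet. Points are mice and ticks with bars the mean and SD of 4 mice. Gli3 alone separates chow from both HFD groups; in the other panels the groups overlap.

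Diet did not change any member past the threshold in BLKS islets. These contrasts were not used to choose the members and were tested with limma over all 32776 probes, with Benjamini-Hochberg adjustment at 0.05. For HFD against chow, 0 of 95 members were called (0.0397% of all probes), with 7 at an unadjusted p under 0.05 (8.86% of all probes) and a median difference of -0.03. For HFD+PIO against HFD, 0 were called (0.00305%), 3 had such a p (4.08%), and the median was -0.05. For HFD+PIO against chow, 0 were called (0.0061%), 5 had such a p (7.29%), and the median was -0.07. The members' share with such a p was under that of all probes in each contrast of this fit, but above it in other fits. With the 12 BLKS arrays alone, 13, 8 and 12 members had such a p in the same order of contrasts (13.7%, 8.42% and 12.6%, beside 10.4%, 5.33% and 8.68% of all probes). With normexp and quantile normalization they numbered 19, 9 and 17 (beside 12.1%, 4.64% and 10% of all probes). On simulated data for HFD+PIO against HFD, 75 of 100 probes changed by 1 log2 unit and 94 of 100 changed by 2 were recovered at this size of design. The changed probes were drawn at random from 32750 fitted probes, not from the members in particular. For HFD against chow, the SE of Ccno was 0.40 in this fit and 0.12 with the 12 BLKS arrays alone. That of Gli3 was 0.37 and 0.22. Recovery among the members was not measured, so these rates do not say how many changed members would be missed.

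Gli3, the repressor of Hedgehog signalling, came closest to the threshold. It was at -3.56, -4.08, -3.76 and -3.88 in BLKS mice on chow, at -2.10, -2.60, -2.17 and -2.72 on HFD, and at -2.78, -3.35, -2.27 and -2.76 on HFD+PIO. All 8 mice on the HFD diets lay above all 4 on chow. The difference was 1.42 ± 0.37 (SE) for HFD against chow, with limma's adjusted p = 0.19, and 1.03 ± 0.37 for HFD+PIO against chow, with adjusted p = 0.504. HFD+PIO differed from HFD by -0.39 ± 0.37 (limma's adjusted p = 1.00). After normexp background correction and quantile normalization the first of these passed the threshold (0.58 ± 0.091, adjusted p = 0.0109). Chow arrays were on slides 2 and 4 and HFD arrays on slide 3, so for this contrast slide and diet cannot be told apart.

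Ccno went the other way. It was at -0.31, -0.62, -0.40 and -0.53 in BLKS mice on chow, at -0.98, -1.19, -1.07 and -1.28 on HFD, and at -0.90, -1.29, -1.25 and -0.94 on HFD+PIO. All 4 chow mice were above the other 8. The difference was -0.67 ± 0.40 for HFD against chow (limma's adjusted p = 0.685) and -0.63 ± 0.40 for HFD+PIO against chow (adjusted p = 0.819). With normexp and quantile normalization both passed, at -0.57 ± 0.080 (adjusted p = 0.00501) and -0.54 ± 0.080 (adjusted p = 0.00835). The SE of 0.40 comes from a fit over both strains, in which the dim BL6 values of Ccno spread from -7.00 to -4.71. In limma fitted to the 12 BLKS arrays alone the SE for HFD against chow was 0.12 for Ccno (adjusted p = 0.138) and 0.22 for Gli3 (adjusted p = 0.0908). Slide and diet cannot be told apart for Ccno either.

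The other members of smallest p had adjusted p of 0.356 or more. In HFD against chow they were 4921528I01Rik (-0.51 ± 0.18; current symbol Ccdc178) and 1700018G05Rik (0.50 ± 0.20). In HFD+PIO against HFD, which lay within 1 slide, they were Zfp819 (-0.66 ± 0.24), ENSMUST00000106604 (0.86 ± 0.37) and Eddm3b (0.70 ± 0.30), an epididymal protein gene. In HFD+PIO against chow, E030010A14Rik (0.62 ± 0.22; current symbol Tmem252) and 4921528I01Rik (-0.51 ± 0.18) stood beside Gli3.

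Markers of islet and other cells were set beside the members. Islet hormone genes were bright in both strains: Ins1, Ins2, Iapp, Gcg, Sst and Ppy were well above background on all 24 arrays, with overlapping levels. Beta-cell markers had a mean level of 5.77 to 6.38 in BL6 and 5.65 to 6.13 in BLKS, with 1 of 8 higher on average in BLKS. Duct markers stood apart between strains: their mean level ran from -2.53 to -0.99 in BL6 and from -0.36 to 0.49 in BLKS. Krt19, Spp1 and Sox9 were higher in every BLKS than in every BL6 array, by 4.02, 2.77 and 2.46, while Krt7 (-0.06) and Cftr (-0.05) overlapped. Sox9 was well above background on 1 of 12 BL6 arrays and Krt19 on 9, so their differences are no exact folds. The part of duct cells in the epithelial members such as Itgb6, Trim15 and Sprr1a was not tested. Endothelial markers ran from 1.68 to 2.21 in BL6 and from 2.02 to 2.42 in BLKS, with 2 of 4 higher on average and Cdh5 alone apart (1.20). Macrophage markers, beside Mmp12 and Gpr84, ran from 0.42 to 2.51 in BL6 and from 0.21 to 1.23 in BLKS, with 2 of 6 higher on average in BLKS. Acinar markers ran from -0.08 to 7.82 in BL6 and from -3.39 to 7.99 in BLKS, a span within each strain far wider than between them. Delta-cell markers (2 of 2 higher in BLKS), Schwann (0 of 4), mesenchymal (1 of 4), T-cell (1 of 5) and B-cell markers (2 of 4) overlapped between strains in mean level, as did Ppy. Sox10 of the Schwann list and Emr1 of the macrophage list were higher in every BL6 than in every BLKS array.

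Upstream sequence was looked up in the RefSeq promoter table (GRCm38.p6) under 69 symbols, the array's 61 and further current symbols matched by accession, and 56 were found. The table holds 250 bases before to 50 after a transcription start. TGACTCA, the binding motif of AP-1 (the Fos and Jun factors that immediate signals induce), was searched on both strands, so that TGAGTCA counts too. It occurred in 6 of the 56 genes and in 5.95% of 27025 genes of the table: Mmp13, Mmp12, Sprr1a, Upp1, Il20ra and Trim15. Mmp13 and Mmp12 are shown because they are neighbours and both members, Sprr1a because it carries the motif at a pair of positions, and Upp1 and Il20ra, a subunit of the receptor for interleukin-20, for comparison. The motif is in capitals, 5' to 3' on the gene's strand.
Mmp13, chr9:7272453-7272512 (plus): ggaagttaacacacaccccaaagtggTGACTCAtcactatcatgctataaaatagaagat
Mmp12, chr9:7347304-7347363 (plus): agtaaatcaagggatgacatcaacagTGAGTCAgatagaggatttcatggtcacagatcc
Sprr1a, chr3:92485994-92486053 (minus): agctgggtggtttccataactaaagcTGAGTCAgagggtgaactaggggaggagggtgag
Sprr1a, chr3:92485964-92486023 (minus): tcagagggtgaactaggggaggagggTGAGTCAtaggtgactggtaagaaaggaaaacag
Upp1, chr11:9117937-9117996 (plus): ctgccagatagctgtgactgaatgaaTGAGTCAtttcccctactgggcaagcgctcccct
Il20ra, chr10:19712397-19712456 (plus): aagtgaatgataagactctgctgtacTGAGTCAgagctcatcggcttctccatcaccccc
The motif began 35 bases before the listed start in Mmp13, 44 in Mmp12, 116 and 146 in Sprr1a and 164 in Il20ra. For Upp1 it began 45 or 140 bases before, depending on which of its listed starts is taken. These sequences come from the reference genome and not from BLKS mice, whose promoters were not looked up. They were matched by gene symbol, and a match is a description and no measured binding site.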

How the data were processed

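RNA from islets of 24 mice was labelled with Cy3 and hybridised to 1-colour Agilent arrays, 1 per mouse. Per the file headers, spots were read with Agilent Feature Extraction 10.7.3.1 against an mm9 grid, and the deposited intensity used here is the processed signal, background-subtracted by that software. The deposited value table holds the same signal as a ratio to each array's median, and was used as an alternative. From these intensities, log2 processed signals were averaged over unflagged spots of a probe and centred on the array's 75th percentile of non-control spots; percentiles ran from 245.0 to 458.7. Detection flags were averaged over a probe's spots, and 0.5 or more counted as 1. The number of arrays limits the precision.

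Probes well above background on at least 4 of 24 arrays (32776) were fitted with limma 3.58.1 in R 4.3.3 with 6 group means; BLKS diet contrasts were adjusted over all of them. The fit was tested on simulated data. Alternatives were normexp (offset 50) with quantile normalization, quantile alone, the deposited table, other filters and subsets, slide as a random block, mouse number as a block, and leaving out each mouse. Nothing in the labels says how mice were housed or processed together, so p-values measure the spread between these mice.

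Names are those of the array design; 61 members matched a current RefSeq symbol by accession. Members and gene lists were chosen with earlier results of these data known. Named with values were the 12 members of largest bound, members in clusters, genes with another probe, the 3 of smallest p per contrast, probes nearest the rule's edge and members of strain-variable families; Edn1, Fgg, Ucp1, Ankrd1, Il20ra, Snora47, AW125324 and the motif were chosen after their values were seen. Mouse numbers do not pair animals across groups: correlations of same-numbered mice ran from -0.38 to 0.19.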

Additional observations from a re-analysis of the deposited data

Results flagged for a closer look

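In each of 75 groups of 4 BLKS mice (25 member probes by 3 diets), the distance of the lowest or highest mouse from its nearest neighbour was set against the group's range. It exceeded Dixon's 95% critical value for 4 samples in 4 groups; chance gives about 1 in 20. Ucp1 in HFD mouse 3 was at -0.86, with the other 3 mice between -3.10 and -3.01. Ankrd1 in HFD mouse 1 was at -3.59, with the others between -1.73 and -1.57. Tdrd6 in HFD+PIO mouse 1 was at -3.09, with the others between -1.84 and -1.83. The clone 1700018G05Rik in HFD+PIO mouse 2 was at -4.07, with the others between -3.68 and -3.65. The causes were not tested.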

How the results depend on the processing

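The number of members depended on the rule. With the weaker significance flag in place of the stricter one, 8 probes passed, of which 3 were members. Allowing 11 or more BLKS arrays and at most 1 BL6 array gave 209, chow arrays alone 268, and slides 2 and 4 alone 223, all holding the 95 members; fewer arrays or a looser rule let more probes pass by construction. Leaving out 1 mouse gave 95 to 115. The median strain difference of 2.99 was 0.65 after normexp, whose offset of 50 lifts dim values, and 2.97 to 3.09 under the other settings. All 95 stayed positive under each. The rule that chose the members all but fixed that sign, so nothing is read from it. Genes in clusters numbered 10 with a gap of 1 Mb, 43 with 5 Mb and 86 under the looser rule. Other probes that agreed numbered 15 under each setting tried, though most of these settings only left some probes out.

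In the diet contrasts, normexp with quantile normalization called 2 members for HFD against chow (Gli3 and Ccno) and 1 for HFD+PIO against chow (Ccno); each other setting, and leaving out each mouse (0 to 0), called 0. The replicate block (mouse number) called 0 in all 3 contrasts and moved the calls over all probes from 13, 1 and 2 to 7, 9 and 0. Of 153 values, under alternatives, of the 3 members with the smallest p in each contrast, 1 newly passed (Gli3) and 153 kept their sign. Dim BL6 signals limit each strain difference to a bound.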
